A study of Sus scrofa with 12 samples.

Results

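The regions described here are the peaks of N6-methyladenosine (m6A), a methyl group on adenosines of RNA, that the authors' peak tables annotate to the 5′ untranslated region (5′ UTR), the stretch of an mRNA ahead of its start codon. They were chosen by that annotation alone, without use of any measured height or change. The list for cells in normoxia held 4337 such peaks of 25346 (17.1%), in 3906 genes. The list for cells in hypoxia held 3897 of 24444 (15.9%), in 3427 genes, and the table of differential peaks between the conditions held 226 of 1206 (18.7%), in 221 genes. Over the 3 tables this came to 8460 of 50996 entries.

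Primary granulosa cells, which line the ovarian follicle around the oocyte, were taken from crossbred sows (Duroc × Yorkshire × Landrace). Normoxia was 21% O2, 5% CO2 and 74% N2, and hypoxia was 1% O2, 5% CO2 and 94% N2, each for 12 h. The labels name no engineered allele or drug in either condition, and oxygen is the one difference they give. Each condition had 3 biological replicates, and every replicate gave an input library and a library pulled down with an antibody to m6A, 12 libraries in all. No source used here says whether each replicate was a separate animal, so the p-values measure the spread between these cultures.

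In most mRNAs m6A is written during transcription by a complex built on METTL3 and METTL14, and it is densest in long internal exons and near the stop codon. A second mark, m6Am, sits on the first transcribed nucleotide next to the cap, is written by the enzyme PCIF1, and is bound by the same antibodies. A pull-down signal at the very start of a transcript can therefore come from either mark. Methylation inside 5′ UTRs is known from work on stress, where it has been tied to translation that bypasses the cap. Granulosa cells surround the oocyte in a layer without blood vessels and meet low oxygen in the follicle.

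Reads per library are not known from the tables. Values of the expression table are FPKM (fragments normalised to gene length and library size), with sums of 294929 to 326804 in the 6 input libraries. After scaling each library by its median ratio to a common reference, the factors were 1.09 to 1.15 in normoxia and 0.809 to 0.944 in hypoxia, with hypoxia replicate 3 lowest. The hypoxia replicates 2 and 3 lay on opposite sides of replicate 1 for many genes named below. Of 9 granulosa markers, 6 had a mean of at least 1 FPKM, and their summed level was 59.1 to 63.4 FPKM in normoxia and 44.5 to 57.8 in hypoxia. CYP19A1, AMH and HSD17B1, which are defining granulosa genes, were below a mean of 1 FPKM. All 7 fibroblast and smooth muscle markers were at or above it, with sums of 7545 to 9329 FPKM in normoxia and 3849 to 4868 in hypoxia, most of it ACTA2. The 3 theca genes in the table summed to 8.47 to 14.03 FPKM in normoxia and 11.9 to 27.8 in hypoxia, with CYP17A1 not in it and INSL3 at or near 0. Of the endothelial markers only PECAM1 reached 1 FPKM, and the sums were 6.28 to 6.93 in normoxia and 2.88 to 3.16 in hypoxia. Leukocyte sums were 3.56 to 4.97 and 3.52 to 6.66 FPKM, with PTPRC near 0, and GDF9 was the only oocyte marker in the table. The part of other cell types in the results below was not tested. Fewer cells of a type and less RNA per cell cannot be told apart in these bulk samples.

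Most 5′ UTR peaks lay against the annotated start of their gene. In normoxia 2548 of 4337 (58.8%) had their 5′ end exactly at the gene start, and in hypoxia 2162 of 3897 (55.5%) did. Of exonic peaks 3.74% and 2.96% began there, and of 3′ UTR peaks 2.40% and 1.51%. Nearness to the start is partly built into the 5′ UTR annotation, so this contrast is not a separate result. A further 7.77% of the normoxia peaks and 7.78% of the hypoxia peaks began 1 to 100 bases downstream, 16.6% and 17.4% at 101 to 1000 bases, and 9.25% and 10.6% at 1001 to 10000 bases. Beyond 10000 bases lay 7.06% and 8.21%, and before the start 0.58% and 0.51%. A peak far downstream of the first start can lie in the 5′ UTR of a transcript that begins further inside the gene. Peak ends followed a grid: of the peaks beginning 1 to 300 bases after the start, 85.7% in normoxia and 85.9% in hypoxia sat on a multiple of 30 bases or 1 base short of it. Positions are thus known only to about that step, and a peak at the start cannot be resolved into the first nucleotide and the bases after it.

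**Figure D1:**
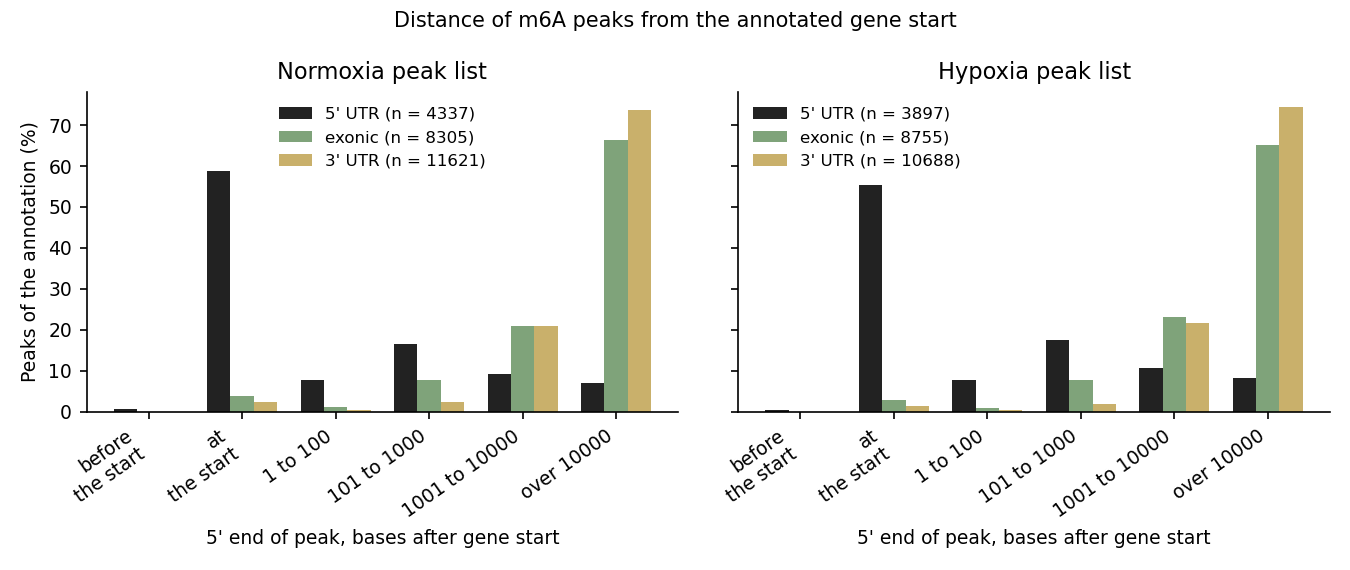
Share of peaks (%, y axis) by the distance in bases of the peak's 5′ end from the annotated gene start (x axis) in the normoxia list and the hypoxia list, for 5′ UTR, exonic and 3′ UTR peaks. The 5′ UTR peaks stand highest at the start itself (58.8% and 55.5%), while exonic and 3′ UTR peaks are mostly more than 10000 bases away.

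A span runs from the first to the last base of a peak on the genome and includes any intron between. The median span of 5′ UTR peaks was 1054 bases in normoxia (quartiles 270 and 8616) and 683 bases in hypoxia (quartiles 210 and 5916). Spans of 500 bases or less made up 37.6% of the normoxia peaks and 45.1% of the hypoxia peaks, and spans over 10000 bases 22.8% and 18.6%. Exonic peaks had a shorter median in hypoxia as well (1200 against 542 bases), as did 3′ UTR peaks (481 against 361 bases). The comparison within genes gave the same order. Of 1988 genes with exactly 1 peak of this annotation in each list, 1107 had the shorter span in hypoxia, 603 had the longer span there, and 278 had equal spans, with medians of 1528 and 1005.5 bases. In 1216 of them the 5′ end was the same base in both lists, while the 3′ end was the same in 380. Each list is 1 call per condition, so these differences have no replicate error and were not tested. The longest spans were those of the axon guidance receptor ROBO2 in normoxia (1111780 bases) and the RNA-binding protein RBMS3 in hypoxia (741376 bases). Such lengths are distances across introns and not lengths of methylated RNA.

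**Figure D2:**
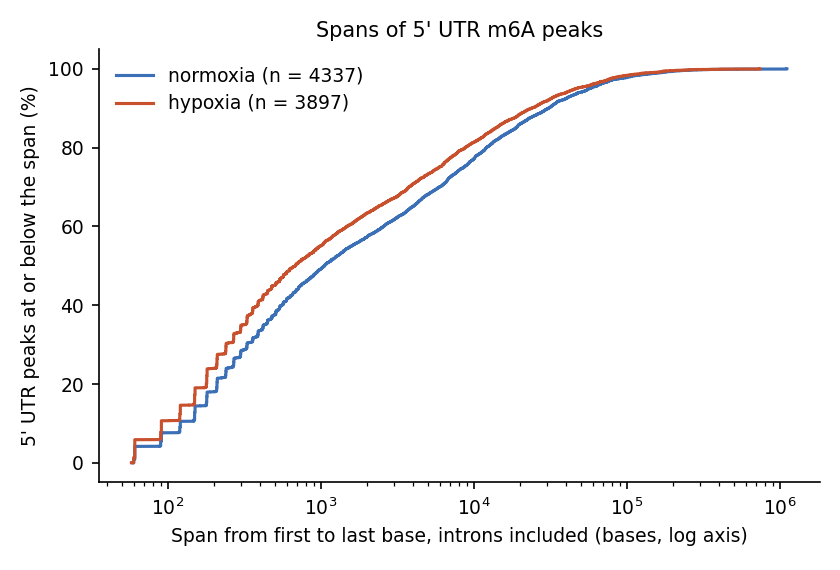
Cumulative share of 5′ UTR peaks (%, y axis) at or below a given span in bases (x axis, log scale, introns included), for the normoxia list and the hypoxia list. The hypoxia curve lies to the left over most of its length, with medians of 683 against 1054 bases, and the steps at the left are the 30-base grid.

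Most genes carried a single peak of this kind: 90.7% of those in the normoxia list and 88.6% in the hypoxia list. The most in any gene were the 6 peaks of RNF139, a membrane-bound ubiquitin ligase, in hypoxia. ACAA1, a peroxisomal thiolase of fatty acid oxidation, had 4 in normoxia and 5 in hypoxia. Among the genes with 4 in normoxia were also ARIH2, BRCA2, CDK16, GOLGA4, LAMTOR2, MBNL1, MPST, PLEC and TCF20. The 4 in PLEC, the cytoskeletal linker plectin, began 0, 27667, 30704 and 41016 bases after the gene start, with enrichments of 48.6-fold, 1.89-fold, 3.57-fold and 2.49-fold. Overlap with a second gene was uncommon: 8.60% of the normoxia peaks and 8.75% of the hypoxia peaks lay over another gene on the opposite strand, and 1.98% and 1.92% over another on the same strand. A peak elsewhere in the gene was usual. Of the 3906 genes in normoxia 65.1% also had a 3′ UTR peak, and of the 3427 in hypoxia 61.2%. Neither an exonic nor a 3′ UTR peak was listed for 815 (20.9%) and 807 (23.5%).

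Enrichment is the authors' fold of the pull-down over the input. Its median was 4.23-fold in normoxia and 5.15-fold in hypoxia for 5′ UTR peaks. The median was higher in hypoxia for exonic peaks (3.44-fold and 4.27-fold) and 3′ UTR peaks (4.45-fold and 5.04-fold) as well. All listed peaks had an unadjusted p-value below 0.05 in the authors' tables, and 84.6% of the normoxia and 82.8% of the hypoxia peaks also had an adjusted p below 0.05. Some peaks shared an identical fold: the 10 most frequent values covered 27.7% of the normoxia and 30.7% of the hypoxia 5′ UTR peaks, against 17.3% and 21.2% of 3′ UTR peaks. Median spans of the peaks called in hypoxia were shorter and their median enrichment higher, and the 2 features were not separated.

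Of the 16 strongest 5′ UTR peaks by p-value, 8 per list with ties at a p of 0 ordered by fold, 13 began at the gene start, and each of their genes had a 5′ UTR peak in both lists. MORF4L1, a chromatin reader of histone acetylation complexes, had a peak at 7:48050045-48070444 (Sscrofa11.1, plus strand) with 264-fold enrichment in normoxia and one ending 30 bases earlier with 223-fold in hypoxia. The peak of CAPNS1, the small calpain subunit, spanned 6:45511295-45513800 in both lists, at 101-fold and 120-fold. That of UBA1, the ubiquitin-activating enzyme, spanned X:41814101-41818521 in both, at 76.0-fold and 76.3-fold. FKBP8, an anti-apoptotic immunophilin of mitochondria, reached 48.6-fold and 27-fold. Among the 8 smallest p-values in normoxia were also HNRNPD (52.7-fold), which binds AU-rich RNA, DDAH2 (14.4-fold), the zinc transporter SLC39A7 (12.5-fold) and ATXN2L (11.2-fold). The last spanned 108153 bases, began at -103117 bases relative to the annotated start of ATXN2L and ran over CLN3 and NUPR1, so the assignment to ATXN2L is uncertain. In hypoxia they were HNRNPUL2 (29.6-fold), the angiogenic factor VEGFA (17.9-fold), the G protein subunit GNAI2 (16.0-fold) and the stress-responsive transcription factor NFE2L1 (14.2-fold).

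VEGFA, the main growth factor for blood vessels and a target of hypoxia-inducible factors, had 8.18, 8.36 and 13.2 FPKM in the normoxia inputs and 137, 156 and 122 FPKM in the hypoxia inputs. The conditions were far apart, with a log2 fold change of 3.70 ± 0.21 (SE, n = 3 per condition; limma adjusted p = 0.000172). Its peak began at the gene start in both lists and covered 7:38746052-38747064 in normoxia (14.8-fold) and 7:38746052-38747093 in hypoxia (17.9-fold). No peak of VEGFA stood in the differential table. FKBP8 had 119, 157 and 161 FPKM in normoxia and 297, 239 and 442 in hypoxia, without overlap. Its log2 fold change was 1.12 ± 0.25 (SE, n = 3; limma adjusted p = 0.0162). Without normoxia replicate 1, normoxia replicate 2 or hypoxia replicate 1 that p was 0.0706, 0.063 and 0.0577. The input of UBA1 was 106, 113 and 121 FPKM in normoxia and 97.3, 95.9 and 122 in hypoxia, with overlapping ranges. Over all tested genes the conditions did not overlap in 9.25% with hypoxia higher and in 34.9% with hypoxia lower. MORF4L1 (92.6 to 130 FPKM against 59.99 to 140) and CAPNS1 (523 to 605 against 392 to 627) overlapped too.

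The most abundant mRNAs with a 5′ UTR peak in both lists were those of GPX3, CLU, HSPB1, MYL6, MYL9, RPL10, AKR1C8 and FLNA. GPX3, a secreted glutathione peroxidase, had 2778, 3021 and 3088 FPKM in normoxia and 1920, 1359 and 2721 in hypoxia, and its peaks were enriched 1.90-fold and 1.96-fold. The chaperone clusterin, CLU, had 1493, 1630 and 2623 FPKM and 1571, 1366 and 2908 FPKM, with 3.12-fold and 3.57-fold enrichment. In these genes the folds were low, from 1.35 for MYL9 to 6.35 for RPL10 in normoxia and from 1.52 to 6.19 for the same genes in hypoxia. AKR1C8, an aldo-keto reductase, fell from 1506, 1540 and 1235 FPKM to 743, 666 and 566 (log2 fold change -1.12 ± 0.16, SE, n = 3; limma adjusted p = 0.00326). Its peak was listed 30 bases apart in the lists, at 1.95-fold and 2.28-fold.

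Sharing between the lists was counted as at least 1 common base on the same strand. Of the 4337 normoxia peaks 2644 (61.0%) overlapped a 5′ UTR peak of the hypoxia list, 377 (8.69%) overlapped only a peak of another annotation, and 1316 (30.3%) overlapped none. Of the 3897 hypoxia peaks these were 2728 (70.0%), 353 (9.06%) and 816 (20.9%). The overlapping peaks began at the same base in 1481 cases, 56.0% of those in the normoxia list and 54.3% in the hypoxia list. Requiring each peak to cover 50% of the other lowered the shared shares to 40.8% and 45.4%. Peaks in 1 list only were shorter and statistically weaker. A longer span meets another peak more readily under the rule of 1 common base, so the contrast in span is partly built in. In normoxia the median span was 418 bases for peaks without a partner and 1260 for shared ones, and an adjusted p below 0.05 was held by 68.0% against 91.9%. In hypoxia the medians were 269.5 and 725 bases and the shares 53.6% and 91.2%. One of the 10 most repeated folds was borne by 36.5% of unpartnered and 23.2% of shared peaks in normoxia, and by 54.2% and 23.6% in hypoxia. The genes of unpartnered peaks also had lower RNA: their median in the normoxia inputs was 3.77 to 4.43 FPKM for normoxia peaks, against 6.34 to 6.73 for shared ones. In the hypoxia inputs the medians for hypoxia peaks were 2.15 to 3.05 and 4.59 to 6.04 FPKM. A peak missing from a list is thus not shown to be absent from those cells.

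By gene, 4849 had a 5′ UTR peak in either list, 2484 in both, 1422 in normoxia only and 943 in hypoxia only. No peak of any annotation in hypoxia was listed for 348 of the normoxia genes, and none in normoxia for 191 of the hypoxia genes. Symbols were not to be had for 400 genes, which are counted and not named, and 32 were not in the expression table. The median of genes with a peak in both lists was 6.25 to 6.66 FPKM in the normoxia inputs and 4.49 to 5.97 in the hypoxia inputs. For genes in the normoxia list only it was 3.46 to 4.13 and 1.83 to 3.64, and for those in the hypoxia list only 2.37 to 2.60 and 1.73 to 2.67. The 184 measured genes with a hypoxia peak here and no normoxia peak at all stood apart, at 0.623 to 0.731 FPKM in normoxia and 0.920 to 1.02 in hypoxia. Genes with peaks of other annotations only had 2.78 to 3.08 and 1.78 to 2.78 FPKM, and genes without any peak 0.0129 to 0.0209 and 0.0123 to 0.0276.

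**Figure D3:**
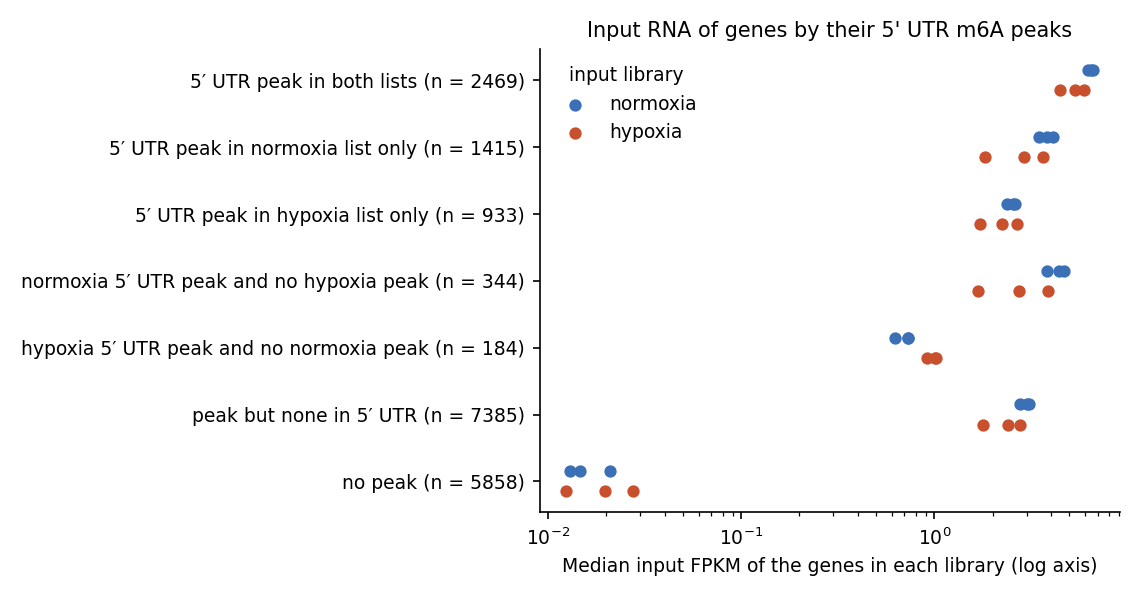
Median input FPKM over the genes of a class (x axis, log scale) in each of the 3 normoxia and 3 hypoxia input libraries, 1 point per library, for classes of genes by their 5′ UTR peaks (y axis, with the number of genes measured). Genes with a peak in both lists have the highest medians (4.49 to 6.66 FPKM), and the hypoxia libraries lie above the normoxia libraries for genes with a hypoxia peak and no normoxia peak, and mostly below them in the other classes with a peak.

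Listed peaks were less frequent among the lowest-expressed genes, as a description over genes. Among the 10196 genes that reached 1 FPKM in 3 or more of the 6 inputs, 31.9% had a normoxia and 27.5% a hypoxia 5′ UTR peak. In 5 equal groups from the lowest to the highest mean FPKM the normoxia share was 26.2%, 32.2%, 33.7%, 33.4% and 33.9%. The hypoxia share was 23.3%, 26.0%, 28.5%, 29.1% and 30.5%, and the share with a peak in both lists rose from 14.9% to 25.7%. Shares of genes with a 3′ UTR peak were highest in the middle group (67.9% and 61.5%) and lower in the highest (59.7% and 53.1%).

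Input RNA was compared between conditions by limma on log2(FPKM + 1), a scale that understates the change of low genes. Over all 10196 tested genes 551 were higher in hypoxia (5.4%) and 2148 lower (21.1%) at an adjusted p below 0.05, with a median log2 fold change of -0.26. With median-ratio scaling of the libraries, which removes that shift, 818 of 10141 genes (8.07%) were higher and 901 (8.88%) lower. Of the 3912 tested genes with a 5′ UTR peak in either list 198 (5.06%) were higher and 839 (21.4%) lower, shares close to those of all genes. After scaling they were 303 (7.80%) and 349 (8.99%) of 3883. Leaving out 1 library moved the counts to between 87, without hypoxia replicate 1, and 414, without hypoxia replicate 3, for the higher genes. For the lower genes the range was from 280, without normoxia replicate 2, to 1228, without hypoxia replicate 3, and without hypoxia replicate 2 the counts were 162 and 883. The higher counts without the other normoxia libraries were 116, 108 and 116 in the order of their numbers, and the lower ones 415, 280 and 341.

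By class, the share of higher genes varied more than that of lower genes. Of 1109 tested genes with a peak in normoxia only 19 (1.71%) were higher and 244 (22.0%) lower. Of 659 with a peak in hypoxia only 61 (9.26%) were higher and 127 (19.3%) lower, and of 2144 with a peak in both 118 (5.50%) and 468 (21.8%). Among 263 tested genes with a normoxia peak here and no hypoxia peak anywhere, 2 (0.760%) were higher and 65 (24.7%) lower. Among 95 tested genes with a hypoxia peak here and no normoxia peak anywhere, 20 (21.1%) were higher and 17 (17.9%) lower. Only those 95 of 184 passed the filter on low values, which a gene can pass through the hypoxia libraries alone. After scaling, these last classes had 3 higher and 37 lower of 264, and 22 higher and 7 lower of 95. The input libraries are the background of the peak calls as well as the measure of RNA, so class and fold change are not independent, and no test between classes was made.

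The highest-expressed genes with a peak in 1 list only were mixed in RNA, some passing the test and others overlapping between conditions. Over all tested genes 5.4% were higher and 21.1% lower. In normoxia these were TAGLN, CD63, EIF4A1, AP2M1, RABAC1, MGST3, ARPC5 and PSMB4. TAGLN, an actin-binding protein of contractile cells, had 2239, 2519 and 2176 FPKM in normoxia and 2659, 2047 and 2465 in hypoxia. Its 61-base peak at the gene start had 2.91-fold enrichment and an adjusted p of 0.152 in the authors' table. CD63, a tetraspanin of late endosomes, had 834, 916 and 1057 FPKM against 860, 656 and 1140, with a 961-base peak at 3.38-fold. The ranges of both genes overlapped. PSMB4, a subunit of the proteasome core, fell from 148, 148 and 143 FPKM to 83.8, 69.7 and 72.7 (log2 fold change -0.95 ± 0.13, SE, n = 3; limma adjusted p = 0.00297). Its peak was enriched 1.55-fold in normoxia. EIF4A1, the cap-binding complex helicase, had 275, 258 and 260 FPKM against 183, 170 and 149, a log2 fold change of -0.66 ± 0.13 (SE, n = 3; limma adjusted p = 0.0108). That call was lost after scaling (adjusted p = 0.139) and without normoxia replicate 1, 2 or 3 (0.0575, 0.0587 and 0.0535).

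In hypoxia the corresponding genes were LGALS3, PGRMC1, MLF2, P4HA2, SELENOF, SLC6A8, ATP6AP1 and TXNIP. P4HA2, a prolyl hydroxylase that modifies collagen, rose from 35.8, 32.5 and 38.3 FPKM to 136, 137 and 166 (log2 fold change 2.01 ± 0.15, SE, n = 3; limma adjusted p = 0.000321). Its 328-base peak was enriched 9.28-fold with an adjusted p of 0.111 in the authors' table. TXNIP, a brake on glucose uptake, had 53.8, 44.9 and 41.8 FPKM in normoxia and 115, 115 and 109 in hypoxia, without overlap (log2 fold change 1.26 ± 0.14, SE, n = 3; limma adjusted p = 0.00149). Of all tested genes 9.25% were without overlap and higher in hypoxia. PGRMC1, a progesterone-binding membrane protein, had 92.4, 88.5 and 79.9 FPKM against 198, 210 and 136 (1.03 ± 0.19; limma adjusted p = 0.00909). ATP6AP1, a proton pump accessory subunit, had the highest enrichment of the 8 at 19.6-fold, while its RNA overlapped at 68.3, 73.3 and 96.2 FPKM against 67.7, 64.1 and 131. The peak assigned to the creatine transporter SLC6A8 lay 150106 bases downstream of the annotated gene start, an unusual distance for a 5′ UTR.

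Among genes with a 5′ UTR peak the largest rises in RNA, beside VEGFA, were those of CXCL14, ECM1, ACKR3, ENO2, FAM162A, FGF11 and TMEM255A. The chemokine CXCL14 had 2.11, 0.844 and 0.457 FPKM in normoxia and 76.2, 56.4 and 107 in hypoxia, and its 60-base peak was listed in hypoxia only (2.51-fold). Its log2 fold change was 5.27 ± 0.34 (SE, n = 3; limma adjusted p = 0.00025). The secreted matrix protein ECM1 went from 31.1, 30.7 and 38.8 FPKM to 582, 528 and 1018, and its 5′ UTR peak was listed in normoxia only (1.65-fold). ACKR3, a scavenging chemokine receptor, had 1.502, 1.34 and 1.31 FPKM against 39.4, 36.6 and 45.2, with its peak in hypoxia only (1.49-fold). FGF11 had 2.52, 2.54 and 2.00 FPKM against 34.1, 36.2 and 35.2, with peaks at the gene start in both lists (22.2-fold and 16.5-fold). TMEM255A had a peak of 150 bases in normoxia and 6887 bases in hypoxia from the same start, at 6.35-fold and 25.8-fold. Of these 8 genes 4 had the peak in both lists, 3 in hypoxia only and 1 in normoxia only.

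The largest falls were in SLC43A2, SPSB2, PSMB3, WARS1, FDPS, FARSA, MCRIP2 and ISM1. SLC43A2, a transporter of neutral amino acids, had 26.9, 29.1 and 18.1 FPKM in normoxia and 2.53, 1.81 and 2.75 in hypoxia (log2 fold change -2.92 ± 0.22, SE, n = 3; limma adjusted p = 0.000449). It had peaks in both lists, of 1063 and 181 bases, that shared their 3′ end. The tryptophan and phenylalanine tRNA ligase genes were both among them. WARS1 fell from 71.7, 76.7 and 73.2 FPKM to 14.6, 15.0 and 10.8, and FARSA from 11.3, 13.2 and 13.1 to 1.76, 2.14 and 1.40. Both had their 5′ UTR peak at the gene start in normoxia only (1.97-fold and 2.15-fold). PSMB3, another proteasome core subunit, fell from 128, 134 and 131 FPKM to 26.8, 25.2 and 19.3, also with a peak in normoxia only. FDPS, of sterol synthesis, fell from 49.2, 51.6 and 54.1 FPKM to 11.5, 9.71 and 8.13 with its 5′ UTR peak in hypoxia only (4.12-fold, adjusted p of 0.055 in the authors' table). Of the 8 genes 5 had the peak in normoxia only, 2 in hypoxia only and 1 in both.

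Glycolysis genes with a 5′ UTR peak were all higher in hypoxia. Of 21 tested genes of the list, which covers glucose uptake and the glycolytic enzymes, 6 had a normoxia peak and 9 a hypoxia peak, against 31.9% and 27.5% of all tested genes. HK1, HK2, PFKFB3, PGAM1, PGK1 and ENO2 had peaks in both lists, and PFKL, PFKM and the glucose transporter SLC2A1 in hypoxia only. RNA of all 9 was higher at an adjusted p below 0.05, with a median log2 fold change of 2.36, beside 5.4% of all tested genes and 5.06% of those with a 5′ UTR peak. The tested genes of the list without a 5′ UTR peak were not set beside these 9. The rise is thus not shown to be particular to those with a peak. The list was chosen with earlier results of these data known. HK2, the inducible hexokinase, had 6.09, 6.33 and 6.65 FPKM in normoxia and 35.9, 38.9 and 35.4 in hypoxia (2.36 ± 0.13, SE, n = 3; limma adjusted p = 0.000143). PGK1, phosphoglycerate kinase, rose from 192, 166 and 157 FPKM to 704, 598 and 550, and ENO2, an enolase, from 4.04, 5.36 and 9.41 to 82.2, 55.9 and 173. ENO2's peaks began at the gene start with 3.53-fold and 6.19-fold enrichment, but with adjusted p of 0.122 and 0.532 in the authors' tables. PFKM changed least, from 5.50, 5.70 and 5.00 FPKM to 8.13, 7.90 and 7.85. Its limma adjusted p was 0.0394, and without normoxia replicates 1, 2 and 3 or hypoxia replicates 1 and 2 it was 0.119, 0.128, 0.164, 0.149 and 0.068.

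A list of other genes tied to hypoxia-inducible factors was mixed. It holds genes that answer to these factors, and also VHL and subunits of the factors themselves, such as ARNT. Of 27 tested, 7 (25.9%) had a peak in each list, beside 31.9% and 27.5% of all tested genes. INSIG2, JMJD6, MXI1, STC2 and VEGFA had it in both, ARNT and BHLHE40 in normoxia and P4HA2 and RAB20 in hypoxia. MXI1, an antagonist of MYC, had 1.89, 1.74 and 1.99 FPKM against 11.7, 13.6 and 5.74, and the secreted hormone STC2 had 9.43, 9.86 and 6.17 against 21.5, 25.0 and 18.3. Both rose (limma adjusted p = 0.00468 and 0.00626), as did VEGFA and P4HA2. Of the 9 genes with a peak 4 were higher and 2 lower, beside 5.4% and 21.1% of all tested genes. JMJD6, a 2-oxoglutarate dependent oxygenase, fell from 4.19, 4.32 and 4.35 FPKM to 1.58, 1.99 and 1.52 (log2 fold change -0.97 ± 0.16, SE, n = 3; limma adjusted p = 0.00501). RAB20, the sixth gene to pass, had 3.29, 4.79 and 2.88 FPKM against 1.47, 0.889 and 2.06, and lost its call after scaling (adjusted p = 0.117). Without normoxia replicates 1, 2 and 3 or hypoxia replicates 1 and 2 the p of RAB20 was 0.091, 0.136, 0.0641, 0.107 and 0.0567.

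In the integrated stress response, which ATF4 drives when translation initiation is curbed, 10 of 22 tested genes (45.5%) had a normoxia peak and 5 (22.7%) a hypoxia peak, beside 31.9% and 27.5% of all tested genes. ATF4, ATF5, the kinase EIF2AK3 and the phosphatase subunits PPP1R15A and PPP1R15B had it in both lists, and ASNS, PSPH, SESN2, TRIB3 and XBP1 in normoxia only. Of the 10 genes 6 were lower in hypoxia and 1 higher, beside 21.1% and 5.4% of all tested genes. ASNS, asparagine synthetase, fell from 133, 133 and 124 FPKM to 37.3, 36.0 and 23.5 (log2 fold change -2.01 ± 0.20, SE, n = 3; limma adjusted p = 0.000929). PSPH, of serine synthesis, had 6.22, 4.84 and 4.88 FPKM against 2.00, 1.96 and 1.05, SESN2 had 4.16, 4.88 and 4.08 against 1.41, 1.62 and 1.45, and ATF5 had 8.68, 10.05 and 10.2 against 3.78, 4.87 and 4.81. None of these ranges overlapped (limma adjusted p = 0.00599, 0.00312 and 0.00572), beside 34.9% of all tested genes without overlap and lower in hypoxia. ATF4 had 307, 302 and 300 FPKM against 204, 192 and 127 (limma adjusted p = 0.0215, and 0.0866 after scaling). TRIB3 had 5.41, 4.72 and 6.69 FPKM against 3.29, 3.29 and 3.61 (0.0448, and 0.315 after scaling). PPP1R15A had 26.1, 34.5 and 34.8 FPKM against 50.8, 45.8 and 64.2 and was the higher one (0.0283). Without a normoxia library, numbers 1 to 3, the p of ATF4 was 0.0841, 0.0923 and 0.0772, that of TRIB3 0.131, 0.0923 and 0.184 and that of PPP1R15A 0.105, 0.0864 and 0.072. Without hypoxia replicate 1 TRIB3 had 0.153 and PPP1R15A 0.0888, and without hypoxia replicate 2 TRIB3 had 0.0752.

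**Figure D4:**
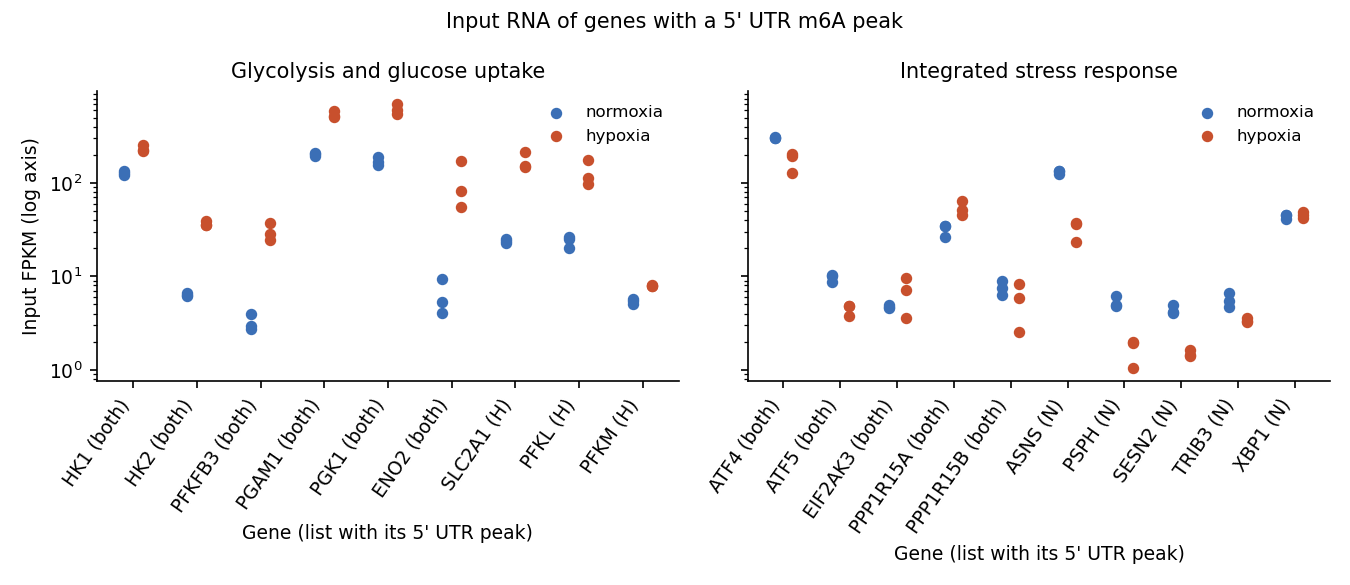
Input FPKM (y axis, log scale) in the 3 normoxia and 3 hypoxia libraries, 1 point per library, for the genes of the glycolysis list and of the integrated stress response list that had a 5′ UTR peak; letters give the list with the peak (N normoxia, H hypoxia, or both). Hypoxia points lie above normoxia points in all 9 glycolysis genes and below them in 6 of the 10 stress response genes.

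Few ribosomal protein genes had a 5′ UTR peak. Of 67 cytosolic ribosomal protein genes, whose mRNAs begin with a pyrimidine tract at the cap, 10 had a normoxia peak and 5 a hypoxia peak, or 14.9% and 7.46% against 31.9% and 27.5% of all tested genes. Peaks of any annotation were fewer as well, listed for 37 of the 67 genes against 9003 of all 10196 tested genes. The low share is thus not particular to the 5′ UTR. RPL7, RPL10, RPL29 and RPS25 were among those with it in both lists, and FAU, RPL10A, RPL35, RPL36A and RPS13 had it in normoxia only. None of these 10 passed the RNA test in either direction, beside 5.4% higher and 21.1% lower of all tested genes. Their median log2 fold change was 0.04. RPS13, for example, had 221, 194 and 213 FPKM in normoxia and 236, 203 and 203 in hypoxia. Ribosomal protein genes have many near-identical pseudogene copies, and whether their reads were divided among loci was not tested. Of 31 translation factors 10 (32.3%) had a normoxia peak and 4 (12.9%) a hypoxia peak, with EIF3B and ABCF1 in both. The 8 in normoxia only were EEF1A1, EIF1AX, EIF2S2, EIF3D, EIF3J, EIF4A1, EIF4E and EIF6. ABCF1, an ATPase of initiation, fell from 35.9, 40.1 and 36.3 FPKM to 16.7, 17.1 and 14.4 (log2 fold change -1.17 ± 0.14, SE, n = 3; limma adjusted p = 0.0017). EIF4A1 was the only other factor of the 12 with a peak to pass. Both were lower, beside 21.1% of all tested genes. The cap-binding protein EIF4E had 10.1, 9.50 and 8.63 FPKM against 5.27, 7.24 and 1.77 (limma adjusted p = 0.102). It passed without hypoxia replicate 2 (0.0273) or 3 (0.0216).

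Of 20 tested genes for the enzymes and readers of the mark, 9 (45%) had a normoxia 5′ UTR peak and 6 (30%) a hypoxia one, beside 31.9% and 27.5% of all tested genes. The methyltransferase subunit METTL14, the demethylase ALKBH5 and the readers YTHDC1 and IGF2BP2 had it in both lists. WTAP, CBLL1, METTL16, HNRNPA2B1 and YTHDF3 had it in normoxia only, and ZC3H13 and YTHDF2 in hypoxia only. ALKBH5 had 9.43, 10.9 and 10.1 FPKM in normoxia and 16.0, 16.2 and 18.0 in hypoxia (log2 fold change 0.67 ± 0.14, SE, n = 3; limma adjusted p = 0.0125), and IGF2BP2 had 0.704, 0.804 and 0.668 against 2.03, 2.69 and 1.69 (0.85 ± 0.17; limma adjusted p = 0.01). Neither gene overlapped between conditions, beside 9.25% of all tested genes without overlap and higher in hypoxia. These 2 of the 11 genes with a peak were called higher and none lower, beside 5.4% and 21.1% of all tested genes. IGF2BP2, however, was below 1 FPKM in every normoxia input and passed the filter on low values through the hypoxia libraries alone. That filter favours a higher call, and IGF2BP2 was not tested when any hypoxia library was left out. Without normoxia replicate 1, 2 or 3 the p was 0.0626, 0.0568 and 0.0642 for ALKBH5 and 0.0553, 0.0581 and 0.059 for IGF2BP2, and without hypoxia replicate 1 it was 0.0555 for ALKBH5. METTL14 had 1.69, 2.03 and 1.81 FPKM against 1.82, 3.37 and 0.981, with hypoxia on both sides of normoxia.

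Of 19 tested heat shock genes 7 (36.8%) had a normoxia and 4 (21.1%) a hypoxia peak, beside 31.9% and 27.5% of all tested genes. BAG3, DNAJB9, HSP90B1 and HSPB1 had it in both lists, and HSPB8, HSPE1 and HSPH1 in normoxia only. Of these 7 genes HSPB1 was the only higher one (923, 1258 and 989 FPKM against 1743, 1402 and 1809; limma adjusted p = 0.0318), beside 5.4% of all tested genes. HSPH1 was the only lower one of the 7 (9.95, 8.62 and 7.44 FPKM against 2.23, 4.43 and 0.557; limma adjusted p = 0.0272), beside 21.1% of all tested genes. Without normoxia replicates 1 and 3 or hypoxia replicate 1 HSPB1 had 0.129, 0.118 and 0.116, and without normoxia replicates 1, 2 and 3 or hypoxia replicate 1 HSPH1 had 0.101, 0.102, 0.0733 and 0.0852. Of 24 immediate-early genes 10 (41.7%) had a normoxia and 7 (29.2%) a hypoxia peak, beside 31.9% and 27.5% of all tested genes. The 7 were all shared: CEBPD, FOSL1, FOSL2, IER2, JUNB, KLF6 and ZFP36. CEBPB, DUSP1 and ZFP36L1 had it in normoxia only. Of the 10 genes FOSL2 was higher and CEBPB and CEBPD lower, beside 5.4% higher and 21.1% lower of all tested genes. Their limma adjusted p was 0.0386, 0.0464 and 0.0163, and after scaling 0.014, 0.309 and 0.0535. Without normoxia replicate 2 it was 0.1, 0.177 and 0.0725, and without normoxia replicate 3 0.163, 0.149 and 0.0605. Without hypoxia replicate 1 FOSL2 had 0.0953 and CEBPB 0.147, without hypoxia replicate 2 they had 0.0744 and 0.0796, and without normoxia replicate 1 FOSL2 had 0.125.

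Of 12 tested granulosa and steroid genes 4 (33.3%) had a peak in each list, beside 31.9% and 27.5% of all tested genes. INHA, INHBB and GATA4 had it in both, NR5A1 in normoxia and WT1 in hypoxia. INHBB, the inhibin and activin subunit beta B, rose from 14.9, 17.2 and 17.2 FPKM to 29.4, 32.9 and 32.1 (log2 fold change 0.90 ± 0.14, SE, n = 3; limma adjusted p = 0.00429). The other 4 did not pass, and over all tested genes 5.4% were higher. INHA had 8.20, 11.5 and 11.4 FPKM against 9.72, 7.24 and 14.5. Of 6 tested genes of NAD+ synthesis NAPRT alone had a 5′ UTR peak, in hypoxia, with 6.76, 10.2 and 9.81 FPKM against 28.4, 20.3 and 45.4 (1.65 ± 0.30; limma adjusted p = 0.00855).

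The differential table of the authors lists peaks by a log2 difference in m6A, hypoxia minus normoxia, at an unadjusted p-value below 0.05, with no value per replicate. Of its 226 5′ UTR entries 127 were higher in hypoxia and 99 lower, beside 43% higher and 57% lower over all annotations. At an adjusted p below 0.05, 64 were higher and 27 lower. Over all annotations 18.6% of the entries were higher with such a p and 16.7% lower. In 3′ UTRs 206 were higher and 424 lower, and in exons 169 and 148. The direction in 5′ UTRs went with the strand of the gene. On the plus strand 100 were higher and 43 lower, and on the minus strand 27 were higher and 56 lower. At an adjusted p below 0.05 these counts were 55 and 13, and 9 and 14. No such split was present in 3′ UTRs (103 higher and 206 lower on plus, 103 and 218 on minus), and in exons it was smaller (101 and 78, 68 and 70). At an adjusted p below 0.05 the exonic counts were 40 and 19 on plus and 32 and 16 on minus, shares of 67.8% and 66.7% higher, and the 3′ UTR counts 48 and 72, and 37 and 65. The plus strand held 63.3% of the 5′ UTR entries, 53.7% of the normoxia peaks and 56.8% of the hypoxia peaks, beside 50.7% of all tested genes. The direction of the 5′ UTR entries as a whole can thus not be read without the strand, and what the strand marks was not tested.

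**Figure D5:**
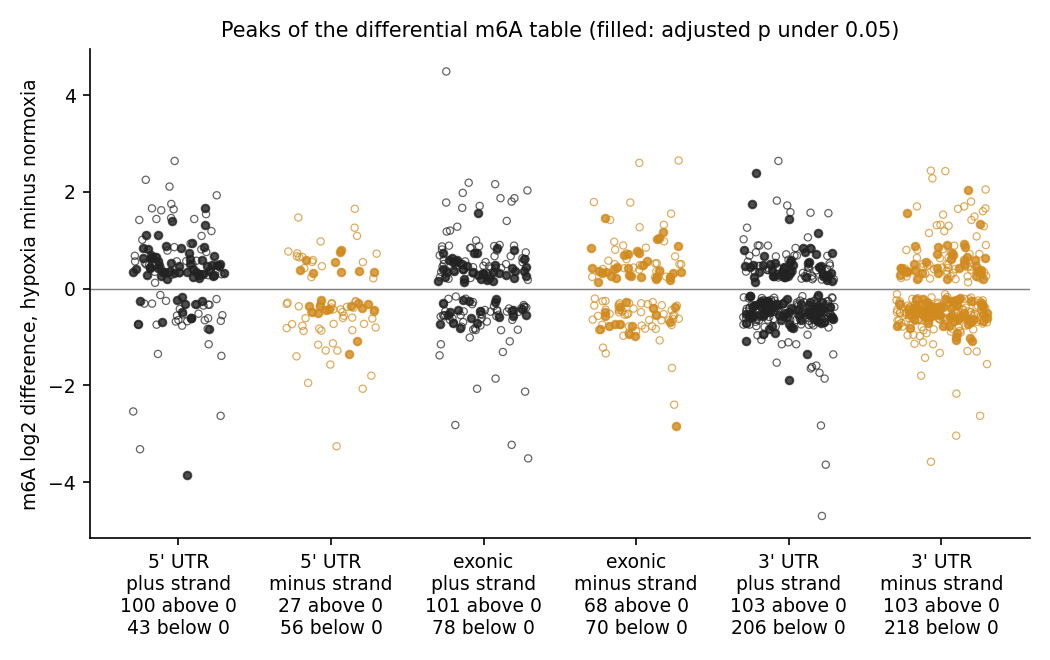
Log2 difference in m6A, hypoxia minus normoxia (y axis), for each entry of the authors' differential table, 1 point per entry, by annotation and gene strand (x axis, with the number above and below 0); filled points have an adjusted p below 0.05. The 5′ UTR entries are mostly above 0 on the plus strand (100 of 143) and mostly below it on the minus strand (56 of 83), while 3′ UTR entries are mostly below 0 on both.

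Nearly all of these entries lay over peaks of the lists. Of the 127 higher ones 106 overlapped a peak of both lists and 18 one of the hypoxia list only, and of the 99 lower ones 70 overlapped both and 28 the normoxia list only. The overlap is partly built in, since lists and table come from the same libraries. A 5′ end at the gene start was less common than in the lists, with 84 of 226 (37.2%). It was held by 58 of 127 higher and 26 of 99 lower entries. By strand it was held by 67 of 143 entries on plus (46.9%) and 17 of 83 on minus (20.5%). In the normoxia list these shares were 59.7% and 57.6%, and in the hypoxia list 57.5% and 52.8%. Of the higher entries 100 were on the plus strand, so direction and strand were not separated here. Some entries were near copies of each other: DERPC had 3 that ended within 3 bases of one another, C15orf39 had 2 that overlapped, and a gene without a symbol had 2 that differed by 1 base. The 2 entries of FAM50A did not overlap.

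Among the 5′ UTR entries of the authors' table with an adjusted p below 0.05, the largest higher difference was that of PPP1R37, a regulatory subunit of protein phosphatase, at 1.67 (6:51523157-51523305, plus strand, 30 bases after the gene start). NAALADL2 followed with 1.40, and UBA1 with 1.31 at the peak described above, where the lists gave 76.0-fold and 76.3-fold. PLEKHF1, an endosomal adaptor, had 1.11, and SLC2A1, the main glucose transporter of most cells, 1.1 over 179 bases from the gene start (6:168535440-168535618, plus strand). DNTTIP1, ELOC, IGSF3, ITGB1BP1, MYO1D, OBSL1 and SLC6A6 had 0.766 to 0.874. Only OBSL1 and SLC6A6 of these 12 lie on the minus strand, and the OBSL1 entry also covers part of INHA on the opposite strand. The DNTTIP1 entry covers part of a gene without a symbol on the opposite strand. That gene had its own entry at 0.657 (adjusted p = 0.226 in the authors' table). The entries of NAALADL2, IGSF3 and SLC6A6 began 231514, 59897 and 19525 bases after the gene start, unusual distances for a 5′ UTR.

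The RNA values of 6 genes with higher entries are set beside them here; both comparisons use the same input libraries. SLC2A1 rose from 22.7, 24.9 and 23.6 FPKM to 151, 148 and 213 (log2 fold change 2.77 ± 0.18, SE, n = 3; limma adjusted p = 0.00023). PPP1R37 had 7.92, 9.58 and 10.2 FPKM in normoxia and 4.26, 4.67 and 4.81 in hypoxia (-0.87 ± 0.16; limma adjusted p = 0.00739). After scaling the p of PPP1R37 was 0.0577 and without normoxia replicate 2 it was 0.0531. DNTTIP1, of a histone deacetylase complex, had 23.6, 25.4 and 24.4 FPKM against 13.9, 12.9 and 13.3 (-0.83 ± 0.13; limma adjusted p = 0.00459, and 0.0509 after scaling). MYO1D, an unconventional myosin, had 65.1, 69.3 and 63.0 FPKM against 67.6, 64.9 and 77.9, and ELOC, a subunit of the ubiquitin ligase that contains VHL, 5.14, 6.07 and 4.71 against 4.58, 5.01 and 2.42. HK1, with an entry of 0.330 in a peak 28650 bases after the gene start, rose from 127, 136 and 120 FPKM to 253, 227 and 221 (limma adjusted p = 0.00368).

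The lowest difference among the 5′ UTR entries of the authors' table was -3.85, in UCHL1, a neuronal deubiquitinase, over 61 bases (8:32353725-32353785, plus strand, adjusted p = 0.00309). UCHL1 had no peak in either list, and its RNA was 135, 145 and 131 FPKM in normoxia and 109, 99.5 and 110 in hypoxia (limma adjusted p = 0.0725, and 0.04 without hypoxia replicate 3). Among 5′ UTR entries with an adjusted p below 0.05, CIART, a repressor of the circadian clock, followed at -1.35 (4:98804004-98804328, minus strand). Its RNA, measured in the same inputs, rose from 1.29, 1.25 and 1.65 FPKM to 11.04, 10.5 and 12.4, a log2 fold change of 2.36 ± 0.16 (SE, n = 3; limma adjusted p = 0.00025). ADAMTS5, a protease of the follicle's matrix, had -1.09, with 2.50, 2.38 and 5.55 FPKM against 0.739, 1.099 and 1.09. UBOX5, CBX6, GEMIN4, TLNRD1, TST, FOXO1, GAS2L1, NBR1 and PSMD4 lay between -0.84 and -0.437. FOXO1, a transcription factor of follicle growth and atresia, had -0.506 and 41.5, 49.2 and 38.6 FPKM against 29.2, 36.6 and 34.4. PSMD4, the ubiquitin receptor of the proteasome, had -0.437 and fell in RNA from 83.9, 77.5 and 86.6 FPKM to 45.3, 43.5 and 37.4 (-0.96 ± 0.14; limma adjusted p = 0.00339). The NBR1 entry spanned 15086 bases and covers part of BRCA1 on the opposite strand. Among the other genes named above from the gene lists or for the largest RNA changes, ABCF1 had an entry at 0.372 (adjusted p = 1.55e-09 in the authors' table) and PSMB3 one at -0.424 (0.0457). PSMB4 and ASNS had entries at -0.306 and -0.607 whose adjusted p of 0.0741 and 0.154 did not pass.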

How the data were processed

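The analysis used the authors' peak lists for normoxia and hypoxia, their differential table and their expression table. Per the file headers, the peak lists hold a fold of pull-down over input, a p-value and an adjusted p per peak, the differential table a log2 difference with p-values, and the expression table FPKM values per library. The submitters' processing notes name the build Sscrofa11.1, HOMER 4.10, edgeR 4.1, StringTie 2.1.2, HISAT2 2.0.4, FastQC and fastp 0.19.4. How peaks were called, and from pooled replicates or not, none of these sources says. The deposited log2 differences, ratios and p-values carry no error per replicate.

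Rows annotated UTR5 were taken from the 3 peak tables. Deposited starts count from 0 and were raised by 1 for printing. The 5′ end was set by strand. Overlap needed 1 base on the same strand. Inputs were compared with limma 3.58.1 (trend, robust; R 4.3.3) on log2(FPKM + 1) for genes reaching 1 FPKM in 3 or more of 6 inputs, with Benjamini-Hochberg adjustment over all tested genes and a threshold of 0.05. Python 3.11.15 with pandas 2.3.3 made the counts. The procedure was tested on simulated data.

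Alternatives were a pseudocount of 0.1, no filter, median-ratio scaling, a replicate block, leaving out each input library, adjusted p below 0.05 for peaks, peaks without the most repeated folds, a 50% overlap and counts within a strand. Genes were named by rule: the 12 largest differential peaks per direction, the 8 smallest p-values per list, the 8 most abundant genes of each sharing class, the 8 largest RNA changes per direction, extremes of number and span, and members of gene lists. The members and lists were chosen with earlier results of these data known. HK1 in the differential table, and the genes of near-copy entries, were named after their values were seen. No sequences are printed, and read depth is unknown, so no counting error could be given. Some items that the naming rule would give are not reported here.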

Additional observations from a re-analysis of the deposited data

How the results depend on the processing

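The share of normoxia 5′ UTR peaks overlapping a hypoxia 5′ UTR peak (61.0%) became 62.7% with peaks of adjusted p below 0.05, 54.2% without peaks of the repeated folds, 40.8% at 50% overlap and 69.7% with any annotation. For hypoxia peaks (70.0%) these were 73.3%, 64.3%, 45.4% and 79.1%. Peaks within 100 bases of the gene start made up 66.6% in normoxia and 63.3% in hypoxia, and among hypoxia peaks of adjusted p below 0.05 53.0% began at it. Differential 5′ UTR entries with an adjusted p below 0.05 were 64 higher and 27 lower. On the minus strand alone 27 were higher and 56 lower, and on the plus strand 43 were lower. Genes with a 5′ UTR peak and higher input RNA (198) became 303 with scaling, 118 with a peak required in both lists and 87 to 414 without 1 library. The lower genes (839) became 349, 468 and 280 to 1228. Higher genes with a hypoxia peak and no normoxia peak (20) became 37 without the filter and 7 to 15 without 1 library, and lower genes with a normoxia peak and no hypoxia peak (65) became 37 with scaling and 32 to 99 without 1 library. With the replicate block 251 genes were higher and 1065 lower. The numbers are not known to pair cultures: same-numbered inputs correlated in their deviations from the group means at 0.586, 0.04 and 0.697, and normoxia replicate 1 correlated best with hypoxia replicate 2 (0.641). Of 165 named genes tested, 71 passed; 18 of them lost the call with scaling, 2 with the smaller pseudocount and 1 with the block. Without normoxia replicates 1, 2 and 3 the calls lost were 22, 28 and 25. Without hypoxia replicates 1, 2 and 3 they were 23, 10 and 0 among the 164 genes still tested. IGF2BP2, which passed in the main fit, was not tested without any of the hypoxia replicates and so lost its call as well. Another 7 and 18 genes gained a call without hypoxia replicates 2 and 3. None reversed in these settings. Values per peak have no replicates, which leaves their error unknown.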
